A study of Homo sapiens with 6 samples.

Results

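A set of 10 genes of plasma cell differentiation was followed in BL2 cells after LEF1 was lowered by siRNA. BL2 is an established human cell line from a Burkitt lymphoma, and LEF1 is a transcription factor of Wnt signalling. They are PRDM1, XBP1, IRF4, ELL2, SDC1, CD38, CD27, JCHAIN, MZB1 and TNFRSF17. Every probe set that the array's annotation assigns to one of these genes alone was taken, which gave 20 probe sets out of 54613 tested, and 10 genes out of 19775 named. The set is defined by gene names, and it was drawn up with earlier results of these data known. The control group, labelled scrb siRNA and called scrambled siRNA here, and the group labelled LEF siRNA each had 3 biological replicates, and all 6 cultures were electroporated. The LEF1 siRNA was a pool of 4 siRNAs, per the series' design text. The labels name 3 batches, each with 1 array per group. All values come from 1 cell line, and the labels give no time between electroporation and harvest.

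A B cell becomes an antibody-secreting plasma cell through a small set of transcription factors. IRF4 and PRDM1 (the gene of Blimp-1) shut down the B cell programme, and XBP1 enlarges the endoplasmic reticulum for secretion. The elongation factor ELL2 favours the mRNA form that encodes secreted rather than membrane-bound immunoglobulin heavy chain. JCHAIN and MZB1 encode proteins that help assemble secreted antibody. SDC1 (CD138), CD38, CD27 and TNFRSF17 (the BCMA receptor) are surface proteins used to recognise plasma cells, and CD38 is also carried by germinal-centre B cells, the cells that Burkitt lymphoma resembles.

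Values are log2 expression, 1 per probe set and array, and each probe set is a group of short probes against 1 transcript region. Brightness differs between probes, so levels are compared between arrays, and between genes only as a coarse mark of dim or clear signal. As a mark of dim signal, 34 probe sets of 17 genes of other tissues, such as ALB and INS, had mean levels between 5.86 and 7.66. Below, this is called the dim range, and a log2 difference inside it is compressed by background. The targeted gene LEF1 was lower on all 3 LEF1 siRNA arrays at each of its 3 probe sets, with a difference of -2.71 at the brightest (limma adjusted p = 0.0213 without block). Of 7 B cell markers 6 were measured, at mean levels from 9.98 to 13.64, while the 8 T and NK cell, 7 myeloid and 6 epithelial markers read between 5.83 and 7.09. At the brightest probe set per gene, 0 markers of these 4 lists passed in either limma fit described next, and at an unadjusted p of 0.05 it was 0 without block and 1 with it. Over all 18 probe sets of the B cell markers, 1 passed the adjusted threshold with batch as block, and it was higher with LEF1 siRNA.

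Of the 10 genes, 6 read above the dim range on all 6 arrays. These were IRF4, CD38, CD27, JCHAIN, MZB1 and TNFRSF17, at 8 probe sets. ELL2 did so on 5 arrays at its brightest probe set. PRDM1 exceeded the dim range on 1 array only, by its brightest probe set, and every value of XBP1 and SDC1 lay inside it. BL2 cells thus showed clear signal for the J chain, for MZB1 and for the BCMA, CD38 and CD27 genes, and signal no brighter than genes of other tissues for XBP1 and SDC1. In bulk RNA, a change in the number of cells of a type and a change of RNA per cell cannot be told apart.

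**Figure D1:**
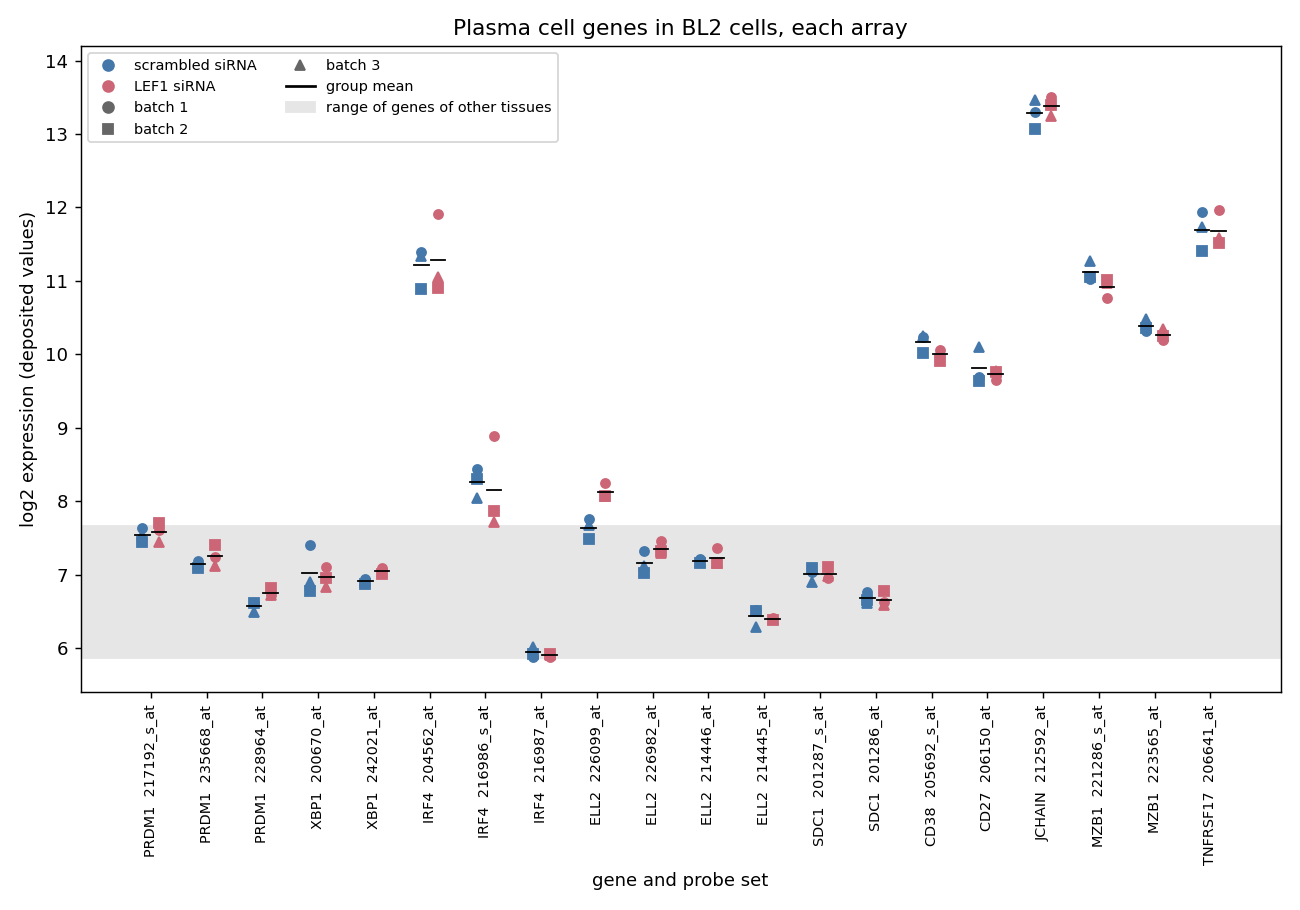
Log2 expression (vertical axis) of the 20 probe sets (horizontal axis) on each of 6 arrays, with colour for the siRNA, symbol for the batch, short lines for group means of 3 arrays and a grey band for the dim range from 5.86 to 7.66. At the ELL2 probe set 226099_at the LEF1 siRNA arrays, at 8.07 to 8.25, all lie above the scrambled siRNA arrays, at 7.49 to 7.76.

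Differences were fitted with limma over all 54613 probe sets, once without block and once with batch as block. Without block 0 of the 20 probe sets passed an adjusted p of 0.05, against 0.0183% of all probe sets. At an unadjusted limma p of 0.05, 3 of the 20 passed without block (7.84% of all probe sets) and 7 with batch as block (17.1%). With batch as block 1 of 20 passed the adjusted threshold, against 6.09% of all probe sets, and it was ELL2 at 226099_at. The groups did not overlap at 4 of 20 probe sets (12.5% of all), and 7 of 20 differed in the same direction in all 3 batches (36.5% of all). The median difference of the 20 probe sets was -0.0036, beside 0.011 over all probe sets. These shares are near the background or rest on few probe sets, and nothing is read from them about the 10 genes as a group. Apart from ELL2, no probe set differed by more than 0.20 on the log2 scale.

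**Figure D2:**
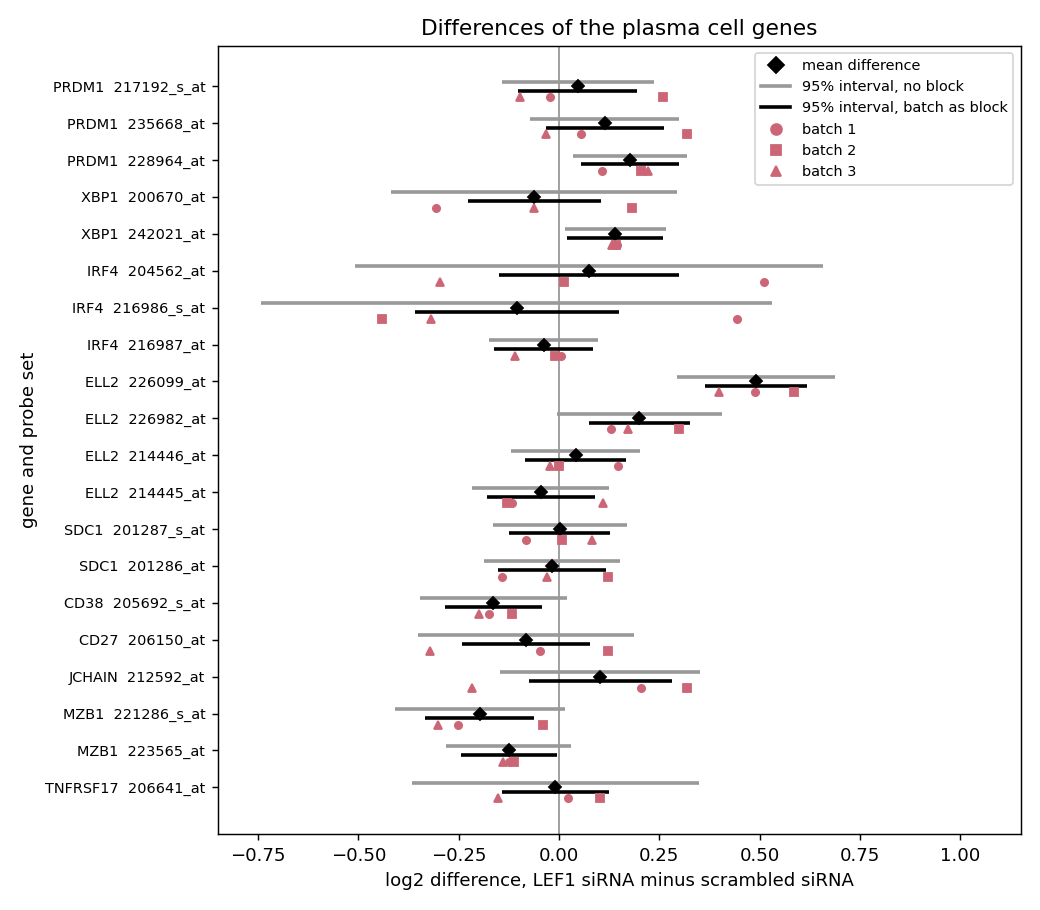
Log2 difference, LEF1 siRNA minus scrambled siRNA (horizontal axis), for the 20 probe sets (vertical axis), with the mean as a diamond, 95% limma intervals without block in grey and with batch as block in black, and each batch's own difference as a symbol. ELL2 226099_at stands at 0.49 with batch values of 0.40 to 0.59, while the 2 brighter IRF4 probe sets have batch values on either side of 0.

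ELL2 was the member that passed on the deposited scale, at 1 of its 4 probe sets and with batch as block only. At its brightest probe set, 226099_at, the scrambled siRNA arrays read 7.76, 7.49 and 7.67 in batches 1, 2 and 3, and the LEF1 siRNA arrays read 8.25, 8.07 and 8.07. Every LEF1 siRNA array lay above every scrambled siRNA array. The means were 7.64 ± 0.14 and 8.13 ± 0.10 (SD, n = 3 each), a ratio of 1.41-fold. The log2 difference of 0.49 had an SE of 0.059 and a limma adjusted p of 0.00034 with batch as block (95% interval 0.36 to 0.62), and did not pass without block (adjusted p = 0.147, interval 0.29 to 0.69). The batch differences were 0.49, 0.59 and 0.40, so the LEF1 siRNA array was the higher one in each batch. An exact permutation of the 6 arrays gave a two-sided p of 0.1, the smallest that 3 against 3 allow, and with the batches kept as pairs an exact test over the 8 sign changes gave 0.25, also the smallest it can give. The difference was 0.45 under quantile normalization, 0.47 with equal medians, 0.45 with cyclic loess and 0.37 when scaled to the poly-A spike-ins, and it passed with batch as block in each. The scrambled siRNA values lie at the upper edge of the dim range, where background can compress a fold, and how much it did so was not tested.

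The other 3 ELL2 probe sets lay in the dim range on all arrays and did not pass. At 226982_at the scrambled siRNA arrays read 7.33, 7.02 and 7.12 and the LEF1 siRNA arrays 7.46, 7.31 and 7.29. Here too the LEF1 siRNA array was the higher one in every batch, by 0.13, 0.30 and 0.17, but the groups overlapped. The mean difference was 0.20 (limma adjusted p = 0.0633 with batch as block and 0.649 without). At 214446_at and 214445_at the differences were 0.041 and -0.046, with batch values from -0.13 to 0.15.

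**Figure D3:**
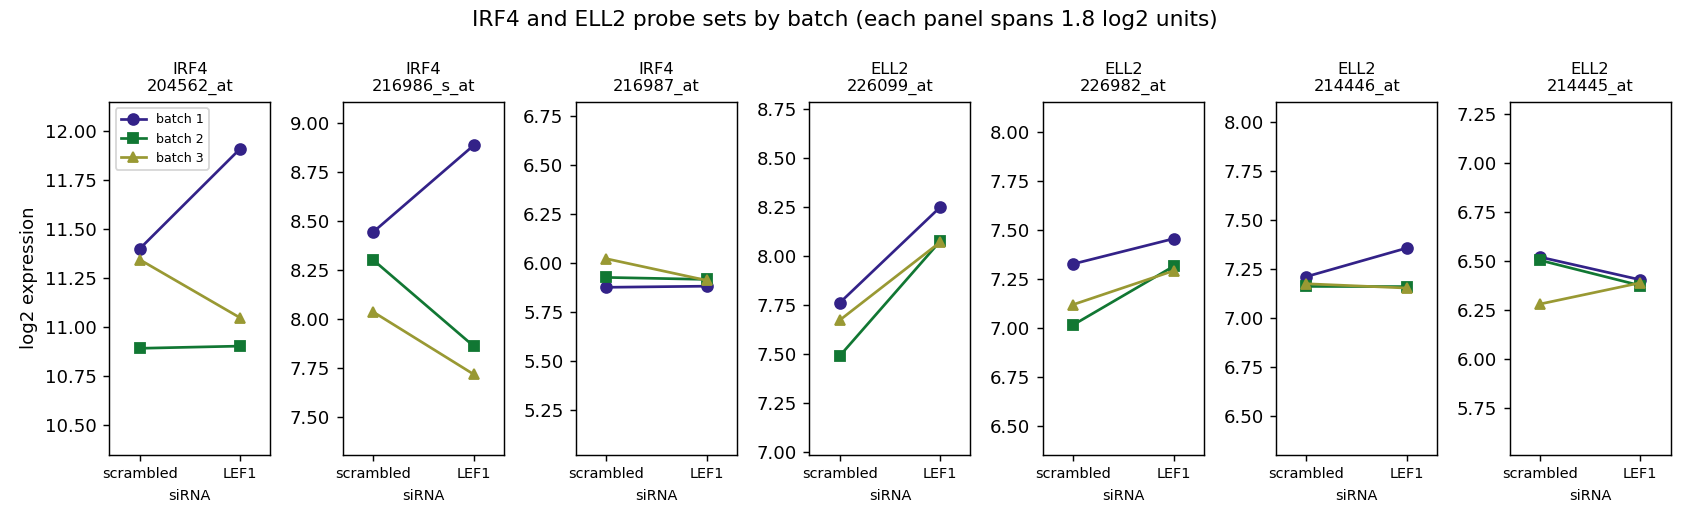
Log2 expression (vertical axis) with scrambled and LEF1 siRNA (horizontal axis) at the 3 IRF4 and 4 ELL2 probe sets, with 1 line per batch and the same span in each panel. All 3 lines rise at ELL2 226099_at, while at IRF4 204562_at batch 1 rises by 0.51 and batch 3 differs by -0.30.

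IRF4, the factor that is needed both for germinal-centre entry and for plasma cell fate, gave batch differences that did not run 1 way. At its brightest probe set, 204562_at, the scrambled siRNA arrays read 11.40, 10.89 and 11.34 and the LEF1 siRNA arrays 11.91, 10.90 and 11.05. The LEF1 siRNA array of batch 1 was the highest of the 6, and the other 2 lay within the range of the controls. The mean difference was 0.075 with an interval of -0.15 to 0.30 with batch as block (limma adjusted p = 0.823). The SD of the LEF1 siRNA arrays, 0.54, was the second largest among the 20 probe sets, after 0.64 at the next IRF4 probe set. That one, 216986_s_at, read 8.44, 8.30 and 8.04 with scrambled siRNA and 8.88, 7.86 and 7.72 with LEF1 siRNA. Batch 1 was again higher, by 0.44, and batches 2 and 3 differed by -0.44 and -0.32. With batch as block, leaving out batch 3 gave 0.26 at 204562_at (limma adjusted p = 0.0259), and leaving out batch 1 gave -0.38 at 216986_s_at (adjusted p = 0.000599). These 2 calls point in opposite directions and each depends on which batch is left out, so no direction is given for IRF4. The third IRF4 probe set, 216987_at, lay at the lower end of the dim range, from 5.87 to 6.02.

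PRDM1, the repressor that ends the B cell programme, showed no call at its 3 probe sets. At the brightest, 217192_s_at, the scrambled siRNA arrays read 7.63, 7.44 and 7.54 and the LEF1 siRNA arrays 7.61, 7.70 and 7.44. The groups overlapped, and the difference was 0.047 with an interval of -0.10 to 0.20 with batch as block (limma adjusted p = 0.833). At 235668_at the difference was 0.11, with batch values of 0.054, 0.32 and -0.033. At the dimmest, 228964_at, all LEF1 siRNA arrays, at 6.72, 6.82 and 6.72, lay above the scrambled siRNA arrays, at 6.61, 6.61 and 6.50. That difference of 0.18 did not pass (limma adjusted p = 0.0939 with batch as block, 0.481 without), and all 6 values lie deep in the dim range.

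Promoter windows from RefSeq, each with 250 bases before and 50 after an annotated start, were held for 8 of the 10 genes in 11 windows. ELL2 and TNFRSF17 had no entry. The core that LEF1 and its TCF relatives bind was searched on both strands as CTTTG followed by 2 bases that are each A or T. It was found in 1 of the 11 windows, against 13.8% of 35116 windows of the same length. The match lies in the upstream window of PRDM1, 197 bases before the start, and that window is shown because it is the only one of these genes with the core of the factor that was lowered. It is chr6:106086086-106086385 of GRCh38.p14, plus strand, and capitals mark the match, which reads CTTTGAA on the minus strand.
PRDM1 upstream promoter: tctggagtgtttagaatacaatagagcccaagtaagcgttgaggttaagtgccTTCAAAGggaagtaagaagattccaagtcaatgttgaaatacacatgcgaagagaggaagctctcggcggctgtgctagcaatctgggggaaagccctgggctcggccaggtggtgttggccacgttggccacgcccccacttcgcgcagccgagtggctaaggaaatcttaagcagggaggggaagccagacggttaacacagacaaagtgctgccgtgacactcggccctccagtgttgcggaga
The match is a description of the sequence and shows no binding. The core ACGTCA of XBP1 and ATF factors was in 1 of the 11 windows (7.98% of all), the downstream PRDM1 window. CCACG, part of the endoplasmic reticulum stress element, was in 6 of 11 (38.1% of all), among them both XBP1 windows. Both strands were searched for each, and the only matches that overlapped were 2 of CCACG on opposite strands of the MZB1 window.

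XBP1, the factor of the secretory programme, stayed in the dim range throughout. At 200670_at the scrambled siRNA arrays read 7.41, 6.78 and 6.90 and the LEF1 siRNA arrays 7.10, 6.96 and 6.84. The batch 1 control was the highest value, and the difference was -0.062 with batch values of -0.31, 0.18 and -0.061 (limma adjusted p = 0.792 with batch as block). At 242021_at the arrays read 6.95, 6.87 and 6.91 against 7.09, 7.01 and 7.04 with LEF1 siRNA. The groups did not overlap and the batch values of 0.15, 0.14 and 0.13 were close to each other, but the difference of 0.14 did not pass (limma adjusted p = 0.194 with batch as block and 0.571 without). The array measures total XBP1 transcript in these regions and gives no measure of its splicing.

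JCHAIN and MZB1, which act in antibody assembly, were bright in both groups. JCHAIN, the chain that joins IgM and IgA units, read 13.30, 13.07 and 13.47 with scrambled siRNA and 13.51, 13.39 and 13.25 with LEF1 siRNA. Batches 1 and 2 differed by 0.20 and 0.32 and batch 3 by -0.22, so the groups overlapped. The mean difference was 0.10 (interval -0.076 to 0.28, limma adjusted p = 0.632 with batch as block). It became 0.26 and passed with batch as block once batch 3, the only batch with a negative difference, was left out (adjusted p = 0.0174). JCHAIN passed in 1 of 11 fits with batch as block and in 0 of 17 without it. The call depends on that omission, so no direction is given for JCHAIN. MZB1, an endoplasmic reticulum protein that aids immunoglobulin folding, read 11.02, 11.05 and 11.28 against 10.77, 11.01 and 10.97 at 221286_s_at. All LEF1 siRNA arrays lay below the scrambled siRNA arrays, but the lowest control, at 11.02, and the highest LEF1 siRNA array, at 11.01, nearly met. The difference was -0.20, with batch values of -0.25, -0.040 and -0.30 (limma adjusted p = 0.0915 with batch as block, 0.681 without). At 223565_at the batch values were -0.12, -0.11 and -0.14 and the mean was -0.13 (adjusted p = 0.262 with batch as block). Neither probe set passed on the deposited scale. Both did with batch as block under poly-A spike-in scaling, at -0.32 and -0.25 (limma adjusted p = 0.00495 and 0.0152), a scaling that moves the median difference of all probe sets to -0.11.

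CD38 was the surface gene that differed in the same direction in all 3 batches. This gene, which encodes an ectoenzyme of germinal-centre and plasma cells, read 10.23, 10.02 and 10.25 with scrambled siRNA and 10.05, 9.90 and 10.05 with LEF1 siRNA. The LEF1 siRNA array was the lower one in each batch, by 0.18, 0.12 and 0.20, while the groups overlapped. The difference of -0.16 had an interval of -0.29 to -0.043 with batch as block and did not pass (limma adjusted p = 0.118, and 0.701 without block). It passed with batch as block under quantile normalization, at -0.20 (adjusted p = 0.0454). Scaled to the poly-A spike-ins it passed as well, at -0.28 (adjusted p = 0.00648), but that scaling moves the median difference of all probe sets to -0.11. CD38 passed in only these 2 of 11 fits with batch as block, and in 0 of 17 without it.

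TNFRSF17, the receptor for the survival factors BAFF and APRIL on plasma cells, read 11.94, 11.41 and 11.73 against 11.96, 11.51 and 11.58. Its values followed the batch, with batch 2 lowest in both groups, and the difference was -0.0090 (interval -0.14 to 0.12 with batch as block, limma adjusted p = 0.971). CD27, a receptor of memory B cells and plasma cells, read 9.70, 9.63 and 10.10 against 9.65, 9.75 and 9.77. The batch 3 control was the highest array, and the difference was -0.083 (limma adjusted p = 0.674 with batch as block). SDC1, the heparan sulphate proteoglycan that is the usual plasma cell marker, lay in the dim range at both probe sets, between 6.58 and 7.10. Its differences were 0.0019 and -0.017 (limma adjusted p = 0.993 and 0.946 with batch as block).

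For the 9 genes other than ELL2, the 95% intervals with batch as block at the brightest probe set lay between -0.33 and 0.30 on the log2 scale. On the deposited scale these limits stand for 0.794-fold to 1.23-fold of the control. Without block the intervals at the same probe sets ran wider, from -0.51 to 0.66, with both limits at IRF4. The second IRF4 probe set, 216986_s_at, reached -0.36 with batch as block and -0.74 without it. For PRDM1, XBP1 and SDC1 these bounds hold for a signal in the dim range, and a larger change of the transcript could be compressed into them. A difference that did not pass does not show that a gene was unchanged.

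Other genes of the plasma cell programme were read from 6 lists, with the brightest probe set standing for each gene. A gene without a call there could still be called at another of its probe sets. Of 119 genes 106 were measured. Without block 0 passed (limma; 0.0253% of all genes), and 18 did at an unadjusted p of 0.05 (9.89% of all genes). With batch as block 19 passed, 13 higher and 6 lower, which is 17.9% against 8.43% of all 19775 genes. The lists were drawn up with earlier results of these data known, so these shares are descriptions only. Their genes were also brighter, with list median levels of 7.89 to 10.98 beside 7.33 over all genes. The 2 shares are thus not matched for brightness. Of the 19, 7 also passed under each of 4 other scalings and with each batch left out, and 0 of the 19 turned direction in any of these. The 7 were ZEB2, SEC24D, SSR1, AFF4, MEF2C, MANF and IGLL1, and all adjusted p-values given for these lists are limma's with batch as block.

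A further list held genes that lead into PRDM1, both signals and antagonists. Of its 12 genes 5 rose and 0 fell (6.73% of all genes were higher with batch as block). The median difference was 0.12, beside 0.019 over all genes, and -0.0033 beside -0.10 under poly-A spike-in scaling. ZEB2, a zinc finger repressor, rose by 0.59 (adjusted p = 0.00132), at 1 of its 5 probe sets. Its means of 6.87 and 7.47 both lie in the dim range and the groups overlapped, with scrambled siRNA arrays at 7.57, 6.49 and 6.56 and LEF1 siRNA arrays at 8.03, 7.44 and 6.93. IRF5, a factor known to act on PRDM1 in mouse B cells, rose by 0.31 (adjusted p = 0.00527) and BATF, an AP-1 partner of IRF4, by 0.35 (adjusted p = 0.0128). STAT3, which carries interleukin signals that induce PRDM1, rose by 0.23 (adjusted p = 0.0316), and IL10RA, named after its value was seen to complete the 5, by 0.24 (adjusted p = 0.038). IRF5 was lost under poly-A spike-in scaling (adjusted p = 0.0504) and BATF without batch 1 (adjusted p = 0.073). STAT3 and IL10RA passed under 0 of the 4 other scalings, and neither passed without batch 2 (adjusted p = 0.145 and 0.316) or, for STAT3, without batch 1 (0.155). IRF5 was called at 2 of 3 probe sets and STAT3 at 1 of 4, while BATF and IL10RA each had 1 probe set. PRDM1 itself was not called.

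Among B cell identity factors, only some of which oppose or are shut down by PRDM1, 2 of 19 rose and 2 fell. Of all genes 6.73% were higher and 1.7% lower. The median difference of the list was -0.027 beside 0.019 over all genes. At the brightest probe sets the share that rose is near the background, and each direction rests on 2 genes. Over all 67 probe sets of the list, 3 were called higher and 10 lower with batch as block. Of all probe sets on the array, 6.09% were called in either direction. MEF2C and BACH2 do not account for all 10, so probe sets of other genes of the list were also called lower. MEF2C fell by 0.41 (adjusted p = 0.000813) and at all 3 of its probe sets. BACH2, a repressor of PRDM1, fell by 0.24 (adjusted p = 0.043), from 11.02 to 10.79, with batch differences of -0.13, -0.18 and -0.41. It did not pass without batch 2 (adjusted p = 0.0934) or batch 3 (adjusted p = 0.304). BACH2 was called at 1 of its 2 probe sets, and the other differed by -0.00032. POU2F2, the octamer factor OCT2 of immunoglobulin promoters, rose by 0.27 (adjusted p = 0.0116), but not under poly-A spike-in scaling (adjusted p = 0.106) or without batch 2 (adjusted p = 0.059). CIITA rose by 0.30 (adjusted p = 0.0307) and passed under 0 of the 4 other scalings, and it was lost without batch 1 (adjusted p = 0.121). POU2F2 was called at 2 of 7 probe sets and CIITA at 1 of 3.

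In the secretory pathway list linked to XBP1, 3 of 29 genes rose and 1 fell (6.73% and 1.7% of all genes), with a median difference of 0.0071 beside 0.019 over all genes. These counts are near the background. SEC24D, a coat protein of transport vesicles that leave the endoplasmic reticulum, rose by 0.55 (adjusted p = 0.000583), from 7.60 in the dim range to 8.15. SSR1, a subunit of the translocon-associated complex, rose by 0.41 (adjusted p = 0.000967). Each was called at 1 of its probe sets, 3 for SEC24D and 6 for SSR1. MANF, a stress-induced protein of the endoplasmic reticulum, fell by 0.57 (adjusted p = 0.000299), from 10.18 to 9.61, with batch differences of -0.66, -0.69 and -0.37. DNAJB9 rose by 0.22 (adjusted p = 0.0489) at the edge of the threshold, passed at all 3 of its probe sets and was lost under each other scaling and without batch 2 (adjusted p = 0.381).

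Among genes of transcript elongation and of heavy chain mRNA processing, 2 of 16 rose and 0 fell (6.73% and 1.7% of all genes). The share that rose rests on 2 genes. The median difference was 0.097, beside 0.019 over all genes. It was 0.048 under quantile normalization and -0.023 under poly-A spike-in scaling, beside -0.00058 and -0.10 over all genes. AFF4, the scaffold of the super elongation complex that holds ELL2, rose by 0.39 (adjusted p = 0.00285), with batch differences of 0.22, 0.49 and 0.45. CCNT2, a cyclin of the elongation kinase P-TEFb, rose by 0.34 (adjusted p = 0.0126), but not without batch 2 (adjusted p = 0.108). AFF4 was called at 1 of 8 probe sets and CCNT2 at 2 of 4.

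Of 22 other plasma cell surface and survival genes 1 rose and 1 fell (6.73% and 1.7% of all genes), with a median difference of 0.025 beside 0.019 over all genes. These counts are near the background too. IL6ST, the shared chain of the interleukin-6 receptor, fell by 0.31 (adjusted p = 0.00546), and it did not pass without batch 2 (adjusted p = 0.0501). IL6ST was called at 1 of its 7 probe sets. MCL1, the survival gene that plasma cells depend on, rose by 0.25 (adjusted p = 0.0345), at 3 of 6 probe sets, and was lost with equal medians (adjusted p = 0.0651), when scaled to the poly-A spike-ins (0.169), and when batch 1 (0.198) or batch 2 (0.155) was left out.

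Of 16 immunoglobulin genes 8 were measured by a probe set of their own, and 2 fell and 0 rose (1.7% of all genes were lower). IGLL1, a surrogate light chain gene and no product of plasma cells, fell by 1.19 (adjusted p = 4.95e-07). IGLC1 fell by 0.24 (adjusted p = 0.0457), from 14.58 to 14.33, and was lost under quantile normalization (adjusted p = 0.181), cyclic loess (0.118) and without batch 2 (0.0879) or 3 (0.338). Lambda constant genes are near-identical copies, so this signal cannot be assigned to IGLC1 alone. IGLC1 was called at 2 of its 9 probe sets. IGHM, the heavy chain gene of the IgM class, falls outside the rule for named genes and was chosen after its value was seen. It read 14.18 with scrambled siRNA and 14.13 with LEF1 siRNA (adjusted p = 0.819). The probe set was not resolved here into the secreted and the membrane mRNA form that ELL2 is known to affect.

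**Figure D4:**
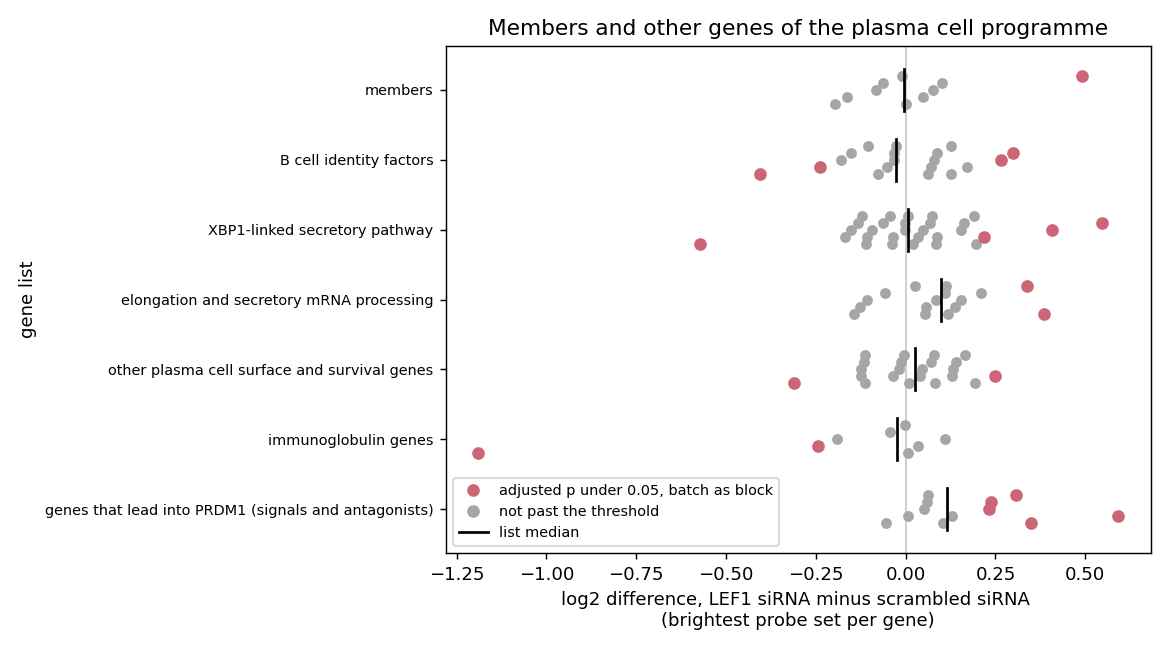
Log2 difference, LEF1 siRNA minus scrambled siRNA (horizontal axis), at the brightest probe set of each gene, for the 10 members and 6 further lists (vertical axis), with genes past a limma adjusted p of 0.05 with batch as block in red and list medians as black lines. ELL2 at 0.49 is the 1 red point among the members, and the list medians run from -0.027 to 0.12.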

How the data were processed

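The deposited table held log2 expression values of HG-U133 Plus 2.0 arrays, 1 per probe set and array, made by the authors from cRNA that was biotinylated with a 3' IVT kit, as the labels' protocols state. The log2 scale was read from the range of 5.45 to 14.95. The normalization method is not given in the sources used here. The arrays' medians ran from 6.89 to 6.96, and the number of arrays limits the precision.

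Genes were named by the platform annotation. The 62 control probe sets were left out. The test was limma's (version 3.58.1, R 4.3.3), two-sided, with Benjamini-Hochberg adjustment over 54613 probe sets and a threshold of 0.05, run both without a block and with the batch as one. The batch label pairs the arrays, and deviations from group means correlated at 0.477, 0.493 and 0.621 within batches. Residual degrees of freedom were 4 without block and 2 with it, beside 12.0 prior ones in the second case, which come from the spread pooled over probe sets. On simulated data for this comparison over 54613 probe sets, differences of 0.5 were recovered at 43 of 100 probe sets without block and 100 of 100 with it, with 0 and 8 false calls. The simulated spread came from the blocked fit. The recovery with the block therefore does not show how dependable its calls on these arrays are.

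The members and lists were chosen with earlier results of these data known. Named genes were the members and LEF1 at every probe set, and from each list up to 4 that passed with the smallest p. Alternatives were other scalings, filters, eBayes settings and leaving out arrays or batches. Promoters came from RefSeq, GRCh38.p14. Figures used matplotlib 3.10.9.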

Additional observations from a re-analysis of the deposited data

How the results depend on the processing

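Without block, the count of member probe sets past the threshold was 0 under each of the other scalings, filters and eBayes settings and without each array or batch (limma). With batch as the replicate block it was 1 on the deposited scale, with equal medians, with cyclic loess, in the brighter probe sets, with 1 probe set per gene and with trend and robust eBayes. It was 2 with the block under quantile normalization and 4 with it under poly-A spike-in scaling, and 1 to 3 with it when batches were left out. ELL2 at 226099_at passed in all 11 fits with the block (adjusted p between 4.5e-08 and 0.00349) and in 0 of 17 without it (0.111 to 0.929), at differences between 0.37 and 0.55. With all 6 arrays, the block changed no other member's call on the deposited scale. It added a call at IRF4 when batch 1 was left out, and calls at IRF4 and JCHAIN when batch 3 was left out. Genes of the lists past the threshold numbered 0 without block and 19 with it. Over the scalings, filters and eBayes settings they numbered 0 to 1 without block, the 1 under poly-A spike-in scaling, and 14 to 31 with it. Leaving out arrays or batches gave 0 without block, and leaving out a batch 10 to 22 with it. Over the whole array 10 probe sets passed without block (0 to 23 under the alternatives) and 3328 with it (1407 to 8797). The fit with the block and 1 batch left out has 1 residual degree of freedom. The planned pseudocount did not apply to log2 values.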
